A study of Mus musculus with 16 samples.

Results

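Cells answer misfolded protein with chaperones, and 31 genes of chaperones and of the stress responses around them were followed through retinas of ageing mice. The genes were chosen by name as 2 sets: 19 genes of the endoplasmic reticulum (ER) and its unfolded protein response, and 12 heat shock genes. All 31 were found among the 54532 genes of the FPKM table for uninjected retinas (fragment counts made comparable across library sizes and gene lengths by the authors). All 31 were also found, by the same gene identifier, among the 48440 genes of the count table for injected retinas. The 2 tables were normalised separately and were tested apart.

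The uninjected retinas came from C57BL6/J mice in 3 groups. There were 4 libraries of 18-month wildtype retinas, 3 of 12-month Elovl2 mutants and 3 of 12-month wildtype retinas. Elovl2 encodes an elongase of long polyunsaturated fatty acids, and its substitution appears as C34W in the genotype label but as C234W in the design text, with no statement of zygosity. The injected retinas came from wildtype mice at 18 months and were taken 5 days after treatment. The vitreous of 1 eye received 0.36 nmol of the polyunsaturated fatty acid 24:5, and that of the fellow eye received vehicle, with 3 libraries of each kind. Whether libraries come from separate animals, and which injected retinas share one, is not stated in the labels. As a point mutation, the allele cannot be checked from the level of Elovl2, which was 23.9 to 24.0 FPKM in 18-month wildtype retinas, 19.7 to 21.9 FPKM in mutants and 19.4 to 23.3 FPKM in 12-month wildtype retinas.

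In the ER, chaperones such as the HSP70 protein encoded by Hspa5 hold unfolded proteins, disulfide isomerases join their cysteines, and a degradation route returns failed proteins to the cytosol. When unfolded protein accumulates, 3 sensors (encoded by Ern1, Eif2ak3 and Atf6) signal to the nucleus through XBP1, ATF4 and the cleaved ATF6, which raise the genes of these machines. In the cytosol the factor HSF1 raises another set, of HSP70, HSP90 and small heat shock proteins. Rod photoreceptors make large amounts of the membrane protein rhodopsin in their ER, and misfolded rhodopsin is a known cause of rod loss.

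The regulatory elements of these responses can be read in the DNA before the genes' starts. They are shown because the members differ in which element was matched, if any. The 250 bases before the RefSeq start (build GRCm38.p6) were searched on both strands in 26 members, 17 of the ER set and 9 of the heat shock set. Manf, Hyou1, Hspa8, Hsp90aa1 and Hsf1 were not searched. The ER stress response element, to which ATF6 binds with the factor NF-Y, was searched as CCAAT, 9 bases of any kind and CCACG. It stood before 7 of the 17 ER genes and 0 of the 9 heat shock genes searched, and before 35 of 27025 genes in all (0.13%). The stretches that follow run 5′ to 3′ on the strand of the gene, with each match in capitals. A match read on the opposite strand begins with CGTGG and ends with ATTGG.
Hspa5, chr2:34772020-34772048, plus strand: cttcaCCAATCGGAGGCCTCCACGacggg
Hsp90b1, chr10:86705513-86705676, minus strand: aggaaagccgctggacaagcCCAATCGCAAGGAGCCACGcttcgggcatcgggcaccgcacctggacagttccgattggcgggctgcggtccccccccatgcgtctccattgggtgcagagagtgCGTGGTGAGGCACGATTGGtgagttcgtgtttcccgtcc
Calr, chr8:84847055-84847113, minus strand: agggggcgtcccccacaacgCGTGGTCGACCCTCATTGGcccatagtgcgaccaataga
Canx, chr11:50325780-50325838, minus strand: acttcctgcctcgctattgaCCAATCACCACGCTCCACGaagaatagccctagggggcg
Pdia6, chr12:17266471-17266529, plus strand: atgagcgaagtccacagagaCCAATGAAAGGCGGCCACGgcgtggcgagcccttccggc
Dnajc3, chr14:118937807-118937865, plus strand: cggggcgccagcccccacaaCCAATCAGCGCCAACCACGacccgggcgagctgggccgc
Creld2, chr15:88819500-88819558, plus strand: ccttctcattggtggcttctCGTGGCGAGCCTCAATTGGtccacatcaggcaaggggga

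Hsp90b1 was the member with more than 1 match to this element, with 2, on opposite strands. A related element, searched as ATTGG, 1 base of any kind and CCACG, stood before Herpud1 and before 10 of the 27025 genes (0.037%). The core of the amino acid response element, to which ATF4 binds with a C/EBP partner, was searched as TGATGNAA and stood before Herpud1 and Asns among the members and before 3.91% of all genes. Herpud1 thus held both kinds of match, and Asns the second alone.
Herpud1, chr8:94386297-94386407, plus strand: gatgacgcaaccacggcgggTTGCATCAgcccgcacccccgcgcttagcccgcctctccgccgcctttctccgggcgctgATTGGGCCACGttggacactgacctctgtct
Asns, chr6:7693214-7693243, minus strand: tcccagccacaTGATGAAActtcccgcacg

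The heat shock element, to which HSF1 binds as a trimer, was searched as GAA, TTC and GAA, or TTC, GAA and TTC, with 2 bases of any kind between neighbours. It stood before 139 of the 27025 genes (0.51%), and among the members before Hspe1 and Hspd1. These encode the mitochondrial HSP10 and HSP60 and are read in opposite directions from 1 shared stretch of chromosome 1, so both matches are the same bases, with 2 overlapping matches in each direction. The core TGACGTGG, bound by XBP1, stood before 0.60% of all genes and before 0 of the 26 members. The searched elements for ATF6 and XBP1 share the letters CCACG, on 1 strand or the other. A match to these letters is no measurement of binding.
Hspe1, chr1:55088053-55088082, plus strand: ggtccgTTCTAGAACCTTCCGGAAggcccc

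**Figure D1:**
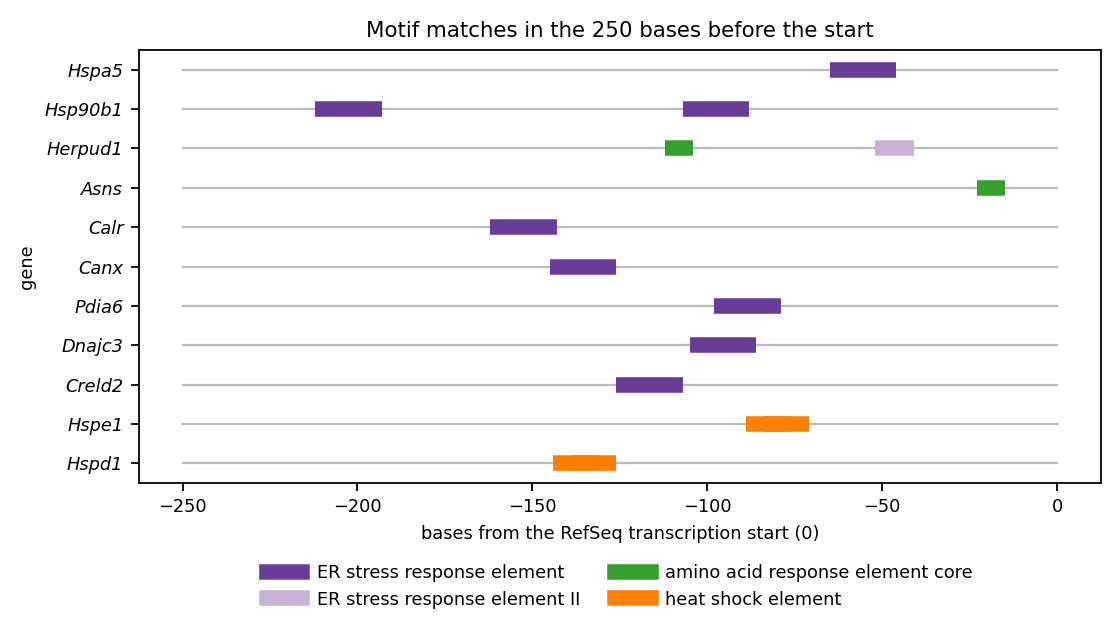
Positions of the motif matches before each member's RefSeq start, with members down the page and distance from the start in bases along the horizontal axis, coloured by motif. The 7 ER genes with the ER stress response element and the shared heat shock element of Hspe1 and Hspd1 can be seen.

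The members were expressed over a wide range in uninjected retinas, and FPKM, being scaled by length, allows their order to be given. Hsp90aa1, the inducible cytosolic HSP90, was highest at 347 to 432 FPKM over the 10 libraries, followed by Hspa8, the constitutive cytosolic HSP70, at 206 to 264 FPKM. Atf4, the transcription factor of the amino acid response, stood at 106 to 150.2 FPKM, next to Calr at 92.1 to 119 FPKM, which encodes the lectin chaperone calreticulin. Those last ranges overlapped, while Hspa8 was above both in every library. Canx (calnexin), Hsp90b1 (the ER HSP90, GRP94) and Hspa5 (BiP) lay at 70.3 to 90.0, 64.9 to 79.5 and 57.6 to 90.2 FPKM, and could not be ordered beyond their spread. At the low end stood Bag3, an HSP70 cochaperone of selective autophagy, at 1.22 to 2.78 FPKM, and Edem1, which sorts glycoproteins for degradation, at 2.14 to 4.01 FPKM. Hspb1 (HSP25), Sdf2l1 and Serpinh1 (the collagen chaperone HSP47) followed at 2.76 to 7.52 FPKM between them.

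The retina is a mixture of cells, and in such bulk samples fewer cells of a type and less RNA per cell cannot be told apart. All 11 rod markers were above 0 in each library, with a summed level of 14156 to 16268 FPKM over the uninjected retinas. The 15 lens markers summed to 1.4 to 2.9 FPKM there. Reads recovered from the FPKM values numbered 12810558 to 30519417 per uninjected library, and injected libraries held 22066668 to 25609242 counts. The least counted member, Hspb1, had 44 reads in its lowest library. Hspa1a and Hspa1b are near-identical copies on chromosome 17, and how reads were divided between them is uncertain. The gene spans of Hspd1 and Hspe1 overlap by 112 bases on opposite strands, and those of Manf and Rbm15b by 6511 bases on the same strand.

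**Figure D2:**
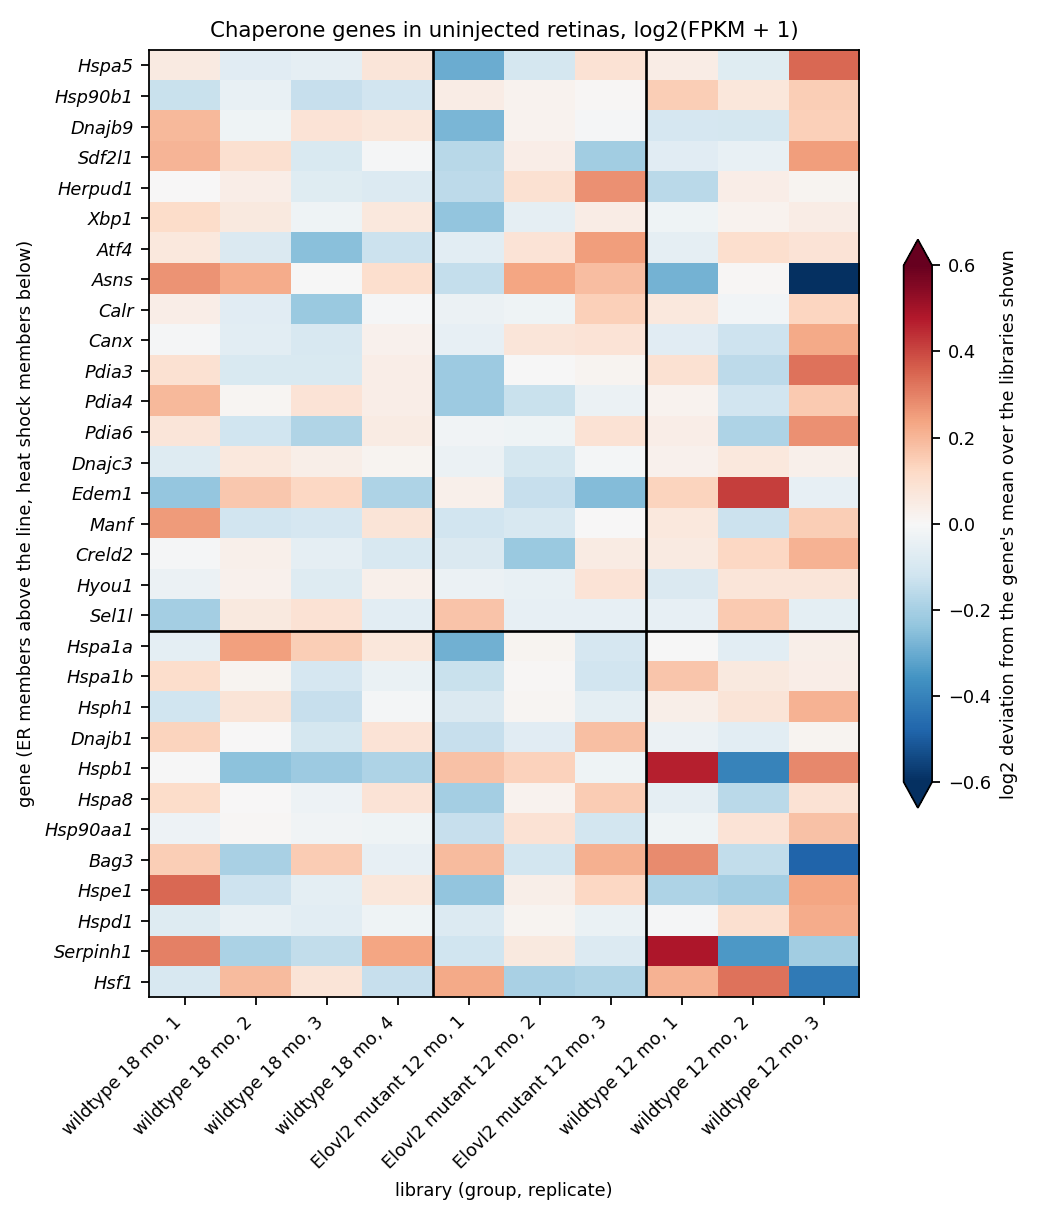
Each member's log2(FPKM + 1) in each uninjected library minus its own mean over the 10 libraries, members down the page and libraries across, with 18-month wildtype left of 12-month mutant and 12-month wildtype. The colour scale ends at 0.6 in either direction. In the 12-month wildtype library of replicate 3, 16 of the 19 ER members stood above their own mean.

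With age, no member passed the test, and a slight lean of the ER set to lower values depended on 1 library. None of the 31 members passed in limma's moderated test with Benjamini-Hochberg adjustment over the 13786 genes tested, 18-month minus 12-month wildtype, where 0% of all genes passed (lowest adjusted p of a member 1.0). At an unadjusted p under 0.05 there were 3 members, 1 higher and 2 lower, beside 3.65% of all genes (503 genes), with 1.69% higher and 1.96% lower. With edgeR on the recovered reads 1 gene passed, which was not a member. Of the ER set 7 were higher and 12 lower, with a median log2 difference of -0.046, and of the heat shock set 6 were higher and 6 lower, with a median of 0.015, where the median of all genes was -0.0014, with 49.4% higher and 50.6% lower. Without the 12-month wildtype replicate 3 the ER members lower at 18 months numbered 8 and their median was 0.021.

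Hsp90b1 (ENSMUSG00000020048, chr10:86690209-86705509 in mm10, minus strand) was the ER member with the smallest p. Its levels were 65.1, 69.3, 64.9 and 66.0 FPKM in 18-month wildtype retinas, 73.9, 72.7 and 71.9 FPKM in mutants, and 79.5, 75.0 and 79.5 FPKM in 12-month wildtype retinas. The 3 groups did not overlap, with the older wildtype retinas lowest and the younger wildtype retinas highest. The SD of Hsp90b1 within groups was 0.040 on the log2(FPKM + 1) scale, above that of 0.73% of the 13786 genes. With so small a spread, groups can separate at a small difference. The 14 immediate early genes, of which 13 were above 0 in each library, summed to 88.9 to 102.06 FPKM in 18-month wildtype retinas, 104 to 114 FPKM in mutants and 102.26 to 114 FPKM in 12-month wildtype retinas, and were thus also lowest in the older retinas. Their part in the level of Hsp90b1 was not tested. The log2 difference was -0.23 for age (SE 0.062, limma adjusted p 1.0) and stayed between -0.26 and -0.22 when any 1 library was left out. It was -0.10 for genotype (SE 0.066, limma adjusted p 1.0) and -0.13 between 18-month wildtype and mutant retinas (SE 0.062, limma adjusted p 1.0). The age and genotype comparisons share the 12-month wildtype libraries, so the 2 differences are not independent of each other.

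Of the 31 members, 3 were lower at 18 months with no overlap between the groups, where 4.17% of all genes had no overlap, 2.22% lower and 1.95% higher. Beside Hsp90b1 these were Creld2 and Hspd1. Creld2, an ER protein induced by misfolding, was at 17.9, 18.4, 17.3 and 16.8 FPKM in 18-month wildtype retinas and at 18.7, 19.7 and 20.9 FPKM in 12-month wildtype retinas, a log2 difference of -0.16 (SE 0.075, limma adjusted p 1.0). Hspd1 was at 37.5, 38.3, 37.9 and 38.9 FPKM in 18-month wildtype retinas and at 39.4, 42.4 and 46.3 FPKM in 12-month wildtype retinas, a log2 difference of -0.16 (SE 0.068, limma adjusted p 1.0). The nearest libraries of the 2 groups were 0.33 FPKM apart for Creld2 and 0.52 FPKM for Hspd1, against 5.68 FPKM for Hsp90b1.

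Asns had the highest log2 difference of the members in both the age and the genotype comparison, without passing the test in either. It encodes asparagine synthetase, a target of ATF4 that makes asparagine when amino acids run short (ENSMUSG00000029752, chr6:7675169-7693254 in mm10, minus strand). Its levels were 26.3, 25.4, 21.6 and 23.3 FPKM in 18-month wildtype retinas, 19.5, 25.7 and 24.7 FPKM in mutants, and 17.6, 21.8 and 14 FPKM in 12-month wildtype retinas. The 12-month wildtype replicate 3 was lowest of all, and the groups touched through its replicate 2. The log2 difference was 0.44 for age (SE 0.145, limma adjusted p 1.0) and 0.38 for genotype (SE 0.155, limma adjusted p 1.0). Without the 12-month wildtype replicate 3 these became 0.28 and 0.23. That same library held the highest value of 7 ER members, among them Hspa5, Canx and Pdia3, and the lowest FPKM of 3 other targets of ATF4, namely Chac1 (1.62), Sesn2 (5.89) and Mthfd2 (3.79), which were picked after their values were seen.

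The master chaperone Hspa5 (ENSMUSG00000026864, chr2:34771970-34777547 in mm10, plus strand) varied more within groups than between them. It was at 73.6, 67.5, 68.2 and 74.5 FPKM in 18-month wildtype retinas, 57.6, 65.9 and 75.3 FPKM in mutants, and 73.1, 67.4 and 90.2 FPKM in 12-month wildtype retinas. Both 12-month groups spanned the whole range of the 18-month group. The log2 difference was -0.10 for age (SE 0.118, limma adjusted p 1.0) and -0.21 for genotype (SE 0.126, limma adjusted p 1.0).

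In the Elovl2 mutants, too, no member passed the test. None of the 31 passed in limma's test with adjustment over all genes, 12-month mutant minus 12-month wildtype, where 0% of all genes passed (lowest adjusted p of a member 1.0), and 0 genes passed with edgeR on the recovered reads. An unadjusted p under 0.05 was reached by 3 members, 1 higher and 2 lower, beside 2.19% of all genes (302 genes), with 1.08% higher and 1.11% lower. Of the ER set 5 were higher and 14 lower, with a median log2 difference of -0.090, and of the heat shock set 4 were higher and 8 lower, with a median of -0.055, where the median of all genes was -0.0060. Among all genes 47.7% were higher and 52.3% lower. The ER count of 14 became 11 without the 12-month wildtype replicate 3, and the ER median became -0.034.

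The groups did not overlap for 5 members, all lower in mutants, beside 5.97% of all genes, with 2.92% lower and 3.05% higher. They were Creld2, Dnajc3 and Hsp90b1 of the ER set and Hspa1b and Hsph1 of the heat shock set. Creld2 was at 16.9, 15.3 and 18.7 FPKM in mutants, against the 18.7, 19.7 and 20.9 FPKM of 12-month wildtype retinas, and the nearest libraries were 0.045 FPKM apart. Dnajc3, an ER cochaperone of BiP, was at 9.93, 9.42 and 10.1 FPKM in mutants and 10.4, 10.7 and 10.4 FPKM in 12-month wildtype retinas. Hsph1, a nucleotide exchange factor of HSP70, was at 10.2, 11.1 and 10.5 FPKM in mutants and 11.3, 11.6 and 12.8 FPKM in 12-month wildtype retinas. Hspa1b, a stress-inducible HSP70, was at 12.2, 13.6 and 12.4 FPKM in mutants and 15.3, 14.1 and 13.9 FPKM in 12-month wildtype retinas. These differences are small, with log2 values of -0.21 for Creld2 (SE 0.080), -0.09 for Dnajc3, -0.15 for Hsph1 (SE 0.078) and -0.17 for Hspa1b (SE 0.074), all at a limma adjusted p of 1.0. Its near copy Hspa1a was at 8.0, 10.1 and 9.25 FPKM in mutants and 9.99, 9.53 and 10.3 FPKM in 12-month wildtype retinas, with overlap.

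Mutant and older wildtype retinas share neither age nor genotype, and no member passed between them in limma's test with adjustment (18-month wildtype minus 12-month mutant, where 0% of all genes passed, lowest adjusted p of a member 1.0). There were 2 members at an unadjusted p under 0.05, both higher at 18 months, Pdia4 and Hspa1a, beside 2.14% of all genes (295 genes), with 1.04% higher and 1.1% lower. Pdia4, a disulfide isomerase, was at 30.8, 27.0, 28.4 and 27.6 FPKM in 18-month wildtype retinas and 22.9, 24.3 and 26.1 FPKM in mutants, a log2 difference of 0.21 (SE 0.082, limma adjusted p 1.0). Its groups did not overlap, as was also true of Hsp90b1, beside 4.47% of all genes, with 2.1% higher and 2.37% lower. Hspa1a was at 9.55, 12.0, 11.2 and 10.5 FPKM in 18-month wildtype retinas, so that its lowest value there fell below the highest of the mutants. Of the ER set 11 were higher and 8 lower, with a median log2 difference of 0.055, and of the heat shock set 8 were higher and 4 lower, with a median of 0.045, where 53.2% of all genes were higher and 46.8% lower. Without the mutant replicate 1, which held the lowest value of 7 of the 12 heat shock members, the heat shock median was -0.024.

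**Figure D3:**
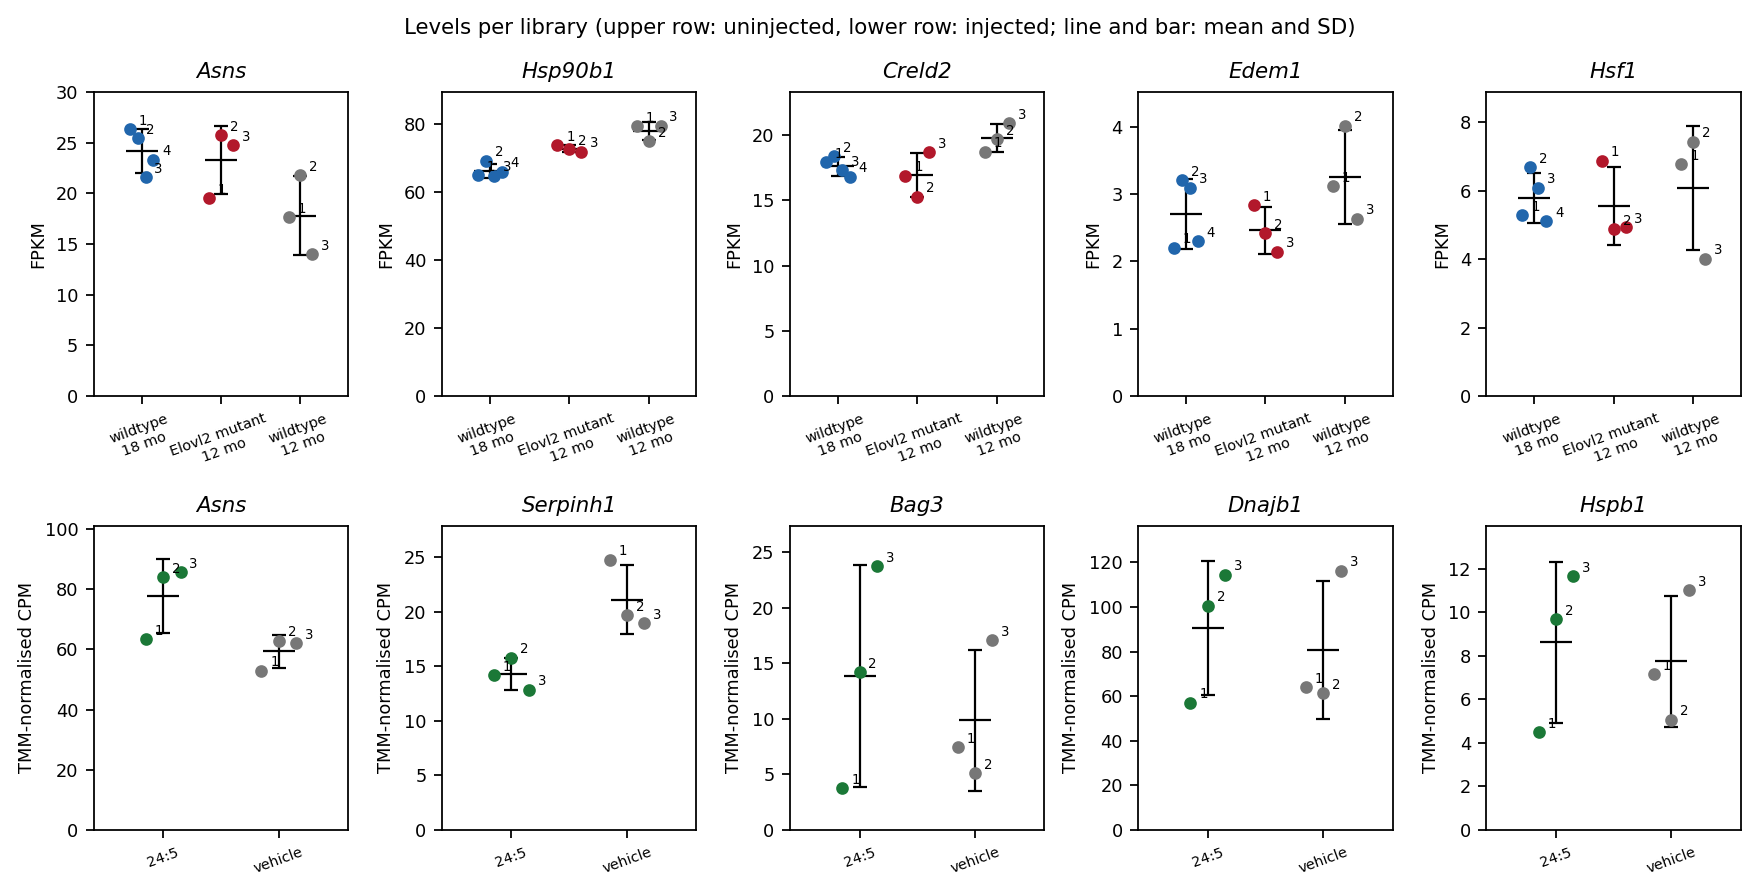
Levels of Asns, Hsp90b1, Creld2, Edem1 and Hsf1 in uninjected retinas (FPKM, upper row) and of Asns, Serpinh1, Bag3, Dnajb1 and Hspb1 in injected retinas (CPM, lower row), 1 point a library with its replicate number, with the group mean as a line and its SD as a bar. Hsp90b1 separates the 3 uninjected groups, Serpinh1 the 24:5 from the vehicle retinas, and Bag3 spreads widely within both injected groups.

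The remaining ER members overlapped between all uninjected groups. Hyou1, the ER HSP110, was among the steadiest, at 12.3 to 13.3 FPKM in 18-month wildtype retinas, 12.6 to 13.9 FPKM in mutants and 12.2 to 13.8 FPKM in 12-month wildtype retinas. Xbp1, the factor whose mRNA is spliced by the sensor IRE1, was at 21.0 to 23.1 FPKM in 18-month wildtype retinas, 18.0 to 22 FPKM in mutants and 20.9 to 22 FPKM in 12-month wildtype retinas. Herpud1 is a scaffold of the degradation route and the member with both kinds of match. Its levels were 35.5 to 38.8 FPKM in 18-month wildtype retinas, 33.7 to 45.8 FPKM in mutants and 33.6 to 38.7 FPKM in 12-month wildtype. Over the 10 libraries the highest value was 1.13 times the lowest for Hyou1, 1.29 times for Xbp1 and 1.36 times for Herpud1. Dnajb9, another cochaperone of BiP, was at 16.9 to 19.8 FPKM in 18-month wildtype retinas, 14 to 17.4 FPKM in mutants and 15.9 to 19.1 FPKM in 12-month wildtype retinas. Manf, a secreted survival factor that is kept in the ER with BiP, was at 8.62 to 11.4 FPKM in 18-month wildtype retinas, 8.62 to 9.42 FPKM in mutants and 8.52 to 10.5 FPKM in 12-month wildtype retinas. The lowest mutant values of Hspa5, Dnajb9, Xbp1, Pdia3 and Pdia4 all came from replicate 1.

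Asns is 1 gene of a wider programme, and 20 of 27 listed targets of ATF4 in the amino acid response were tested beside the members. Of these 16 were higher in mutants than in 12-month wildtype retinas, beside 47.7% of all genes, with a median log2 difference of 0.14. None passed in limma's test with adjustment, and 4 had an unadjusted p under 0.05, all higher, beside 2.19% of all genes. Among them were Phgdh, of serine synthesis, at 5.38, 7.43 and 7.26 FPKM in mutants and 4.41, 4.58 and 3.77 FPKM in 12-month wildtype retinas, and the factor Atf5 at 12.7, 14.1 and 14.7 FPKM in mutants and 12.4, 10.6 and 10 FPKM in 12-month wildtype retinas. The log2 difference was 0.54 for Phgdh (SE 0.214) and 0.31 for Atf5 (SE 0.104), each at a limma adjusted p of 1.0. That count of 4 was 0 without the mutant replicate 3 or without the 12-month wildtype replicate 3, 1 without the 12-month wildtype replicate 1, and 2 without the mutant replicate 2. Atf4 itself was at 120.4, 133 and 150.2 FPKM in mutants and 121, 135 and 133 FPKM in 12-month wildtype retinas, a log2 difference of 0.05 (SE 0.109, limma adjusted p 1.0) that changed sign when 1 library was left out.

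For age, 12 of the 20 targets were higher and 8 lower, beside 49.4% of all genes higher, with a median of 0.076. Trib3, a pseudokinase that restrains ATF4, was at 3.77, 4.35, 4.61 and 4.24 FPKM in 18-month wildtype retinas, 6.10, 5.43 and 7.57 FPKM in mutants, and 5.67, 5.38 and 5.45 FPKM in 12-month wildtype retinas. The older retinas lay below both younger groups without overlap, by a log2 difference of -0.31 from 12-month wildtype (SE 0.098) and -0.48 from mutants (SE 0.098), each at a limma adjusted p of 1.0. Of the 20 targets, 15 were lower in 18-month wildtype than in mutant retinas, beside 46.8% of all genes. The direction of Trib3 with age was opposite to that of Asns, although both are known targets of ATF4.

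No gene on the other lists of protein quality control passed with adjustment in the 3 comparisons of uninjected retinas. The 15 sensors and transducers of the unfolded protein response, which include Ern1, Eif2ak3 and Atf6, had a median log2 difference of -0.022 for age and -0.067 for genotype, with 6 higher and 9 lower in each. Their lowest-p gene for genotype was Ppp1r15a, the stress-induced subunit that guides eIF2α dephosphorylation, at a log2 difference of -0.18 (SE 0.077, limma adjusted p 1.0). The 18 tested genes of ER-associated degradation had medians of 0.028 for age and -0.0017 for genotype. Of these, 13 were higher and 5 lower at 18 months, and 9 were higher and 9 lower in mutants. The 26 tested genes of ER folding and translocation had medians of 0.033 for age and -0.0079 for genotype. Of these, 17 were higher and 9 lower at 18 months, and 11 were higher and 15 lower in mutants. Among all genes 49.4% were higher for age and 47.7% for genotype. Of 39 other cytosolic chaperones and HSF1 targets, 29 were higher at 18 months and 10 lower, beside 49.4% of all genes higher, with a median of 0.038. The smallest p was that of Hspa2, an HSP70 relative, at 6.14, 5.50, 5.56 and 5.77 FPKM in 18-month wildtype retinas and 4.66, 4.07 and 3.73 FPKM in 12-month wildtype retinas, a log2 difference of 0.39 (SE 0.120, limma adjusted p 1.0). Whether the counts and medians of these lists depended on single libraries was not tested.

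Edem1, Sel1l and Hsf1, the gene of the heat shock factor, largely varied together with a nuclear RNA. These members were picked after their values were seen. Edem1 was at 2.2, 3.20, 3.09 and 2.30 FPKM in 18-month wildtype retinas, 2.83, 2.42 and 2.14 FPKM in mutants, and 3.12, 4.01 and 2.64 FPKM in 12-month wildtype retinas. Hsf1 was at 5.29, 6.68, 6.09 and 5.11 FPKM in 18-month wildtype retinas, 6.88, 4.88 and 4.94 FPKM in mutants, and 6.77, 7.44 and 4.01 FPKM in 12-month wildtype retinas. Malat1, a long RNA kept in the nucleus, was at 142, 229, 235 and 150.0 FPKM in 18-month wildtype retinas, 307, 130.2 and 108 FPKM in mutants, and 232, 377 and 85.7 FPKM in 12-month wildtype retinas. Within each group the same libraries were high for Edem1, Hsf1 and Malat1. They were replicates 2 and 3 of 18-month wildtype, replicate 1 of the mutants, and replicates 1 and 2 of 12-month wildtype. How many of all genes followed these libraries was not counted. Sel1l followed them in 18-month wildtype and mutant retinas, but only in part in 12-month wildtype retinas. Its levels in replicates 1, 2 and 3 of 12-month wildtype were 14.48, 16.88 and 14.38 FPKM, so replicate 2 alone was high. Over the tested genes, deviations from the group mean correlated at 0.64 between mutant replicate 1 and 12-month wildtype replicate 2. With 12-month wildtype replicate 3 the correlation was -0.65. Deviations within a group sum to 0 for each gene, so these 2 correlations are not independent of each other. They were the highest and the lowest among the pairs of a mutant and a 12-month wildtype library. The part of nuclear RNA in the levels of Edem1, Sel1l and Hsf1 was not tested. With the Malat1 level as a covariate the count of members passing stayed at 0 in the 3 comparisons.

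**Figure D4:**
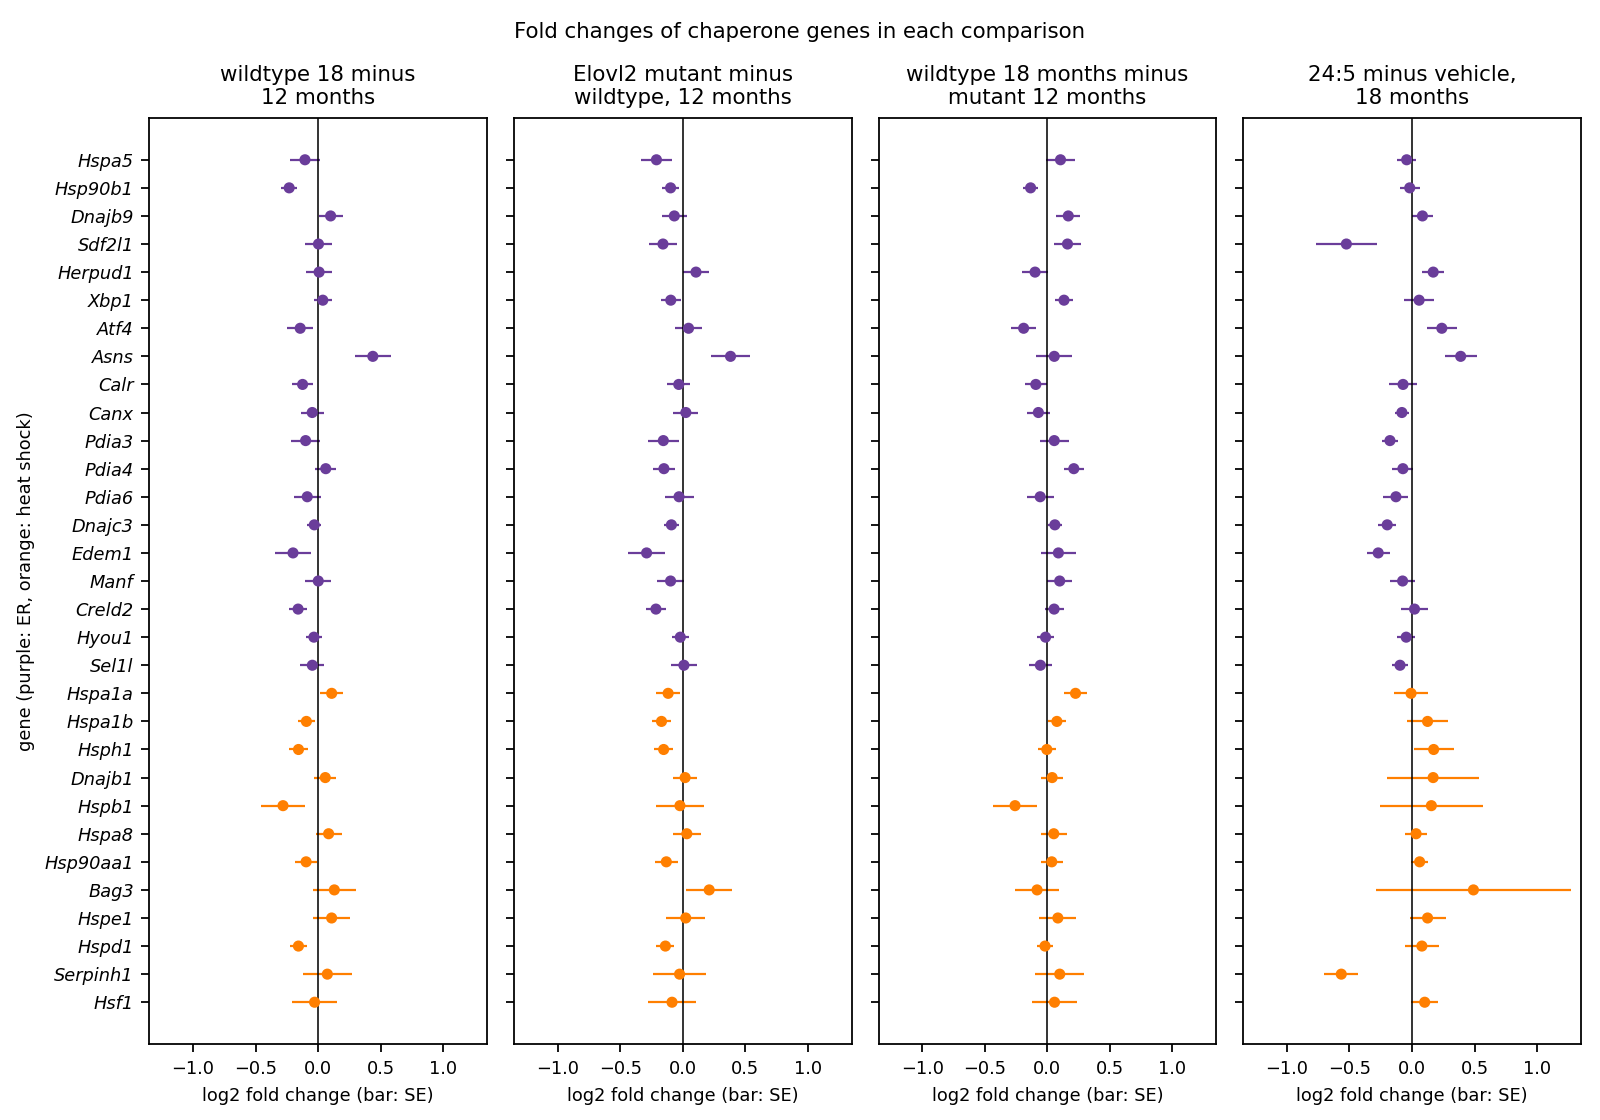
Log2 difference of each member with its SE in 4 comparisons, members down the page and the difference along the horizontal axis, with ER members in purple and heat shock members in orange. Hsp90b1 lies left of 0 in all 3 comparisons of uninjected retinas, and Serpinh1 is the leftmost member after 24:5.

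After injection of 24:5, the ER set leaned lower and the heat shock set leaned higher, and again no member passed the test. In edgeR's quasi-likelihood test with Benjamini-Hochberg adjustment over 17466 genes, 24:5 minus vehicle, 0 of 31 members passed, where 0.0115% of all genes did, which is 2 genes (lowest adjusted p of a member 0.310). There were 5 members at an unadjusted p under 0.05, 1 higher and 4 lower, beside 6.61% of all genes, with 1.44% higher and 5.16% lower. DESeq2 called 245 genes, among them 1 heat shock member, Serpinh1, at an adjusted p of 0.0497. Of the ER set 6 were higher and 13 lower, with a median log2 difference of -0.071, and of the heat shock set 10 were higher and 2 lower, with a median of 0.11, where the median of all genes was 0.0028, with 50.8% higher and 49.2% lower.

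The heat shock lean depended on 1 library. Without the 24:5 replicate 3 the heat shock members higher after 24:5 numbered 6 and their median was -0.0074. With the mean level of lens markers as a covariate they also numbered 6, with a median of -0.017. The lens markers differed widely between these libraries, with a summed level of 732, 139 and 61.9 CPM (counts scaled to library size, TMM-normalised) in 24:5 retinas and 1818, 1945 and 139 CPM in vehicle retinas. The ER members that were lower after 24:5 numbered 9 without the vehicle replicate 1, with a median of 0.0027. That library held the highest value of 9 of the 19 ER members, among them Hspa5, Calr, Pdia3 and Pdia6. Of 39 other cytosolic chaperones and HSF1 targets, 31 were higher after 24:5 and 8 lower, beside 50.8% of all genes higher. Of 26 tested genes of ER folding and translocation, 8 were higher and 18 lower. ER-associated degradation had 9 higher and 10 lower, and the 15 sensors and transducers had 4 higher and 11 lower. The dependence of these lists on single libraries was not tested.

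Serpinh1 was the member with the smallest p (ENSMUSG00000070436, chr7:99345376-99353239 in mm10, minus strand). It encodes HSP47, a chaperone of collagen that is resident in the ER but raised by HSF1. Its levels were 14.2, 15.8 and 12.9 CPM in 24:5 retinas and 24.8, 19.7 and 18.9 CPM in vehicle retinas. Each 24:5 retina was below each vehicle retina. The log2 difference was -0.57 (SE 0.137, edgeR adjusted p 0.310), and it stayed between -0.65 and -0.44 when any 1 library was left out. Beside it, 11 markers of fibroblasts and collagen summed to 97.2, 97.7 and 90.1 CPM in 24:5 retinas and 182, 123 and 94.7 CPM in vehicle retinas, with none of the 11 at 0 in a library. Most of that gap lay in Fbln1, at 2.07, 1.23 and 1.96 CPM in 24:5 retinas and 67.0, 29.4 and 1.33 CPM in vehicle retinas. The other 10 markers, a split made after the values were seen, summed to 95.2, 96.5 and 88.2 CPM in 24:5 retinas and 115, 93.1 and 93.4 CPM in vehicle retinas. The 13 markers of microglia and macrophages, all above 0, summed to 172, 137 and 103 CPM in 24:5 retinas and 382, 346 and 225 CPM in vehicle retinas. The part of these cells in the level of Serpinh1 was not tested.

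The groups did not overlap for 7 members, 1 higher and 6 lower after 24:5, beside 11.6% of all genes, with 4.82% higher and 6.77% lower. Asns was the higher one, at 63.4, 84.0 and 85.6 CPM in 24:5 retinas and 52.9, 62.9 and 62.1 CPM in vehicle retinas, a log2 difference of 0.39 (SE 0.128, edgeR adjusted p 0.527). The lowest 24:5 retina and the highest vehicle retina were 0.52 CPM apart. With lens markers as a covariate the difference was 0.24. Among the lower ones, Edem1 was at 19.6, 19.0 and 18.0 CPM in 24:5 retinas and 21.5, 24.2 and 22.5 CPM in vehicle retinas, a log2 difference of -0.27 (SE 0.091, edgeR adjusted p 0.547). Dnajc3 was at 65.9, 61.4 and 58.4 CPM in 24:5 retinas and 72.8, 69.1 and 71.1 CPM in vehicle retinas, a log2 difference of -0.20 (SE 0.071, edgeR adjusted p 0.614). Pdia3, the isomerase that works with calnexin and calreticulin, was at 135, 129 and 126 CPM in 24:5 retinas and 155, 141 and 145 CPM in vehicle retinas, a log2 difference of -0.18 (SE 0.067, edgeR adjusted p 0.665). The remaining lower ones were Canx, at 546 to 565 CPM in 24:5 and 584 to 589 CPM in vehicle retinas, and Sel1l, the adaptor of the degradation ligase, at 130.2 to 137 CPM in 24:5 and 139 to 146 CPM in vehicle retinas. The SD of Canx within groups was 0.019 on the log2 scale, above that of 0.11% of all genes tested. Serpinh1 apart, the members that were lower without overlap all belonged to the ER set.

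Hspa5, Atf4, Hspa1a and Hspa1b overlapped between the injected groups. Of the 15 sensors and transducers of the unfolded protein response, 2 did not overlap, beside 11.6% of all genes. They were Ddit3, higher after 24:5, and Creb3l2, lower after 24:5, and neither passed with adjustment in edgeR. Hspa5 was at 359, 339 and 358 CPM in 24:5 retinas and 383, 329 and 375 CPM in vehicle retinas, a log2 difference of -0.04 (SE 0.077, edgeR adjusted p 0.997). Atf4 was at 202, 221 and 273 CPM in 24:5 retinas and 191, 182 and 217 CPM in vehicle retinas, a log2 difference of 0.24 (SE 0.121, edgeR adjusted p 0.850), which was 0.08 with lens markers as a covariate. Hspa1a averaged 20.3 ± 2.71 CPM in 24:5 retinas and 20.4 ± 2.39 CPM in vehicle retinas (SD, n = 3 each), a log2 difference of -0.0074 (SE 0.134, edgeR adjusted p 1.0). Its near copy Hspa1b averaged 16.7 ± 3.03 CPM in 24:5 retinas and 15.4 ± 1.91 CPM in vehicle retinas (SD, n = 3 each), a log2 difference of 0.12 (SE 0.161, edgeR adjusted p 0.997). Of 23 tested targets of ATF4, 15 were higher after 24:5 and 8 lower, beside 50.8% of all genes higher, with a median of 0.064. Those with an unadjusted p under 0.05 were Chac1, at 3.26, 3.89 and 3.93 CPM in 24:5 retinas and 2.62, 2.76 and 2.62 CPM in vehicle retinas, and Slc7a11, the cystine transporter, at 24.3, 28.0 and 34.2 CPM in 24:5 retinas and 61.1, 36.9 and 37.3 CPM in vehicle retinas. Their directions were opposite, higher for Chac1 and lower for Slc7a11, and neither passed with adjustment in edgeR.

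**Figure D5:**
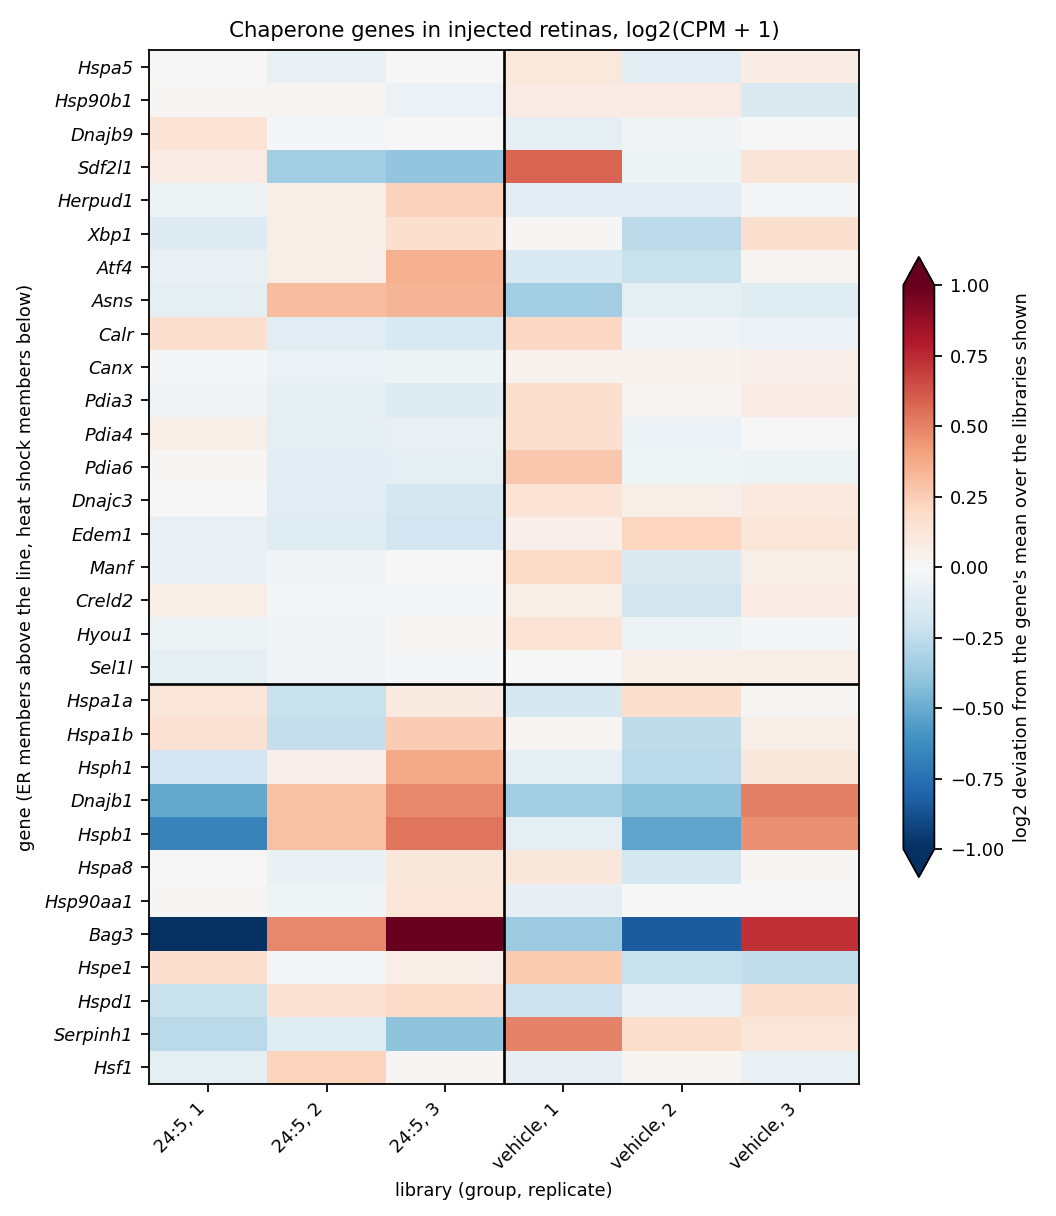
Each member's log2(CPM + 1) in each injected library minus its own mean over the 6 libraries, members down the page and libraries across, with 24:5 left of vehicle. The colour scale ends at 1 in either direction. Bag3, Dnajb1 and Hspb1 are high in the 24:5 replicates 2 and 3 and the vehicle replicate 3, and low in the other libraries.

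Within the injected groups, a few heat shock genes differed far more between libraries than between treatments. Bag3 (ENSMUSG00000030847, chr7:128523616-128546981 in mm10, plus strand) was at 3.74, 14.2 and 23.7 CPM in 24:5 retinas and 7.46, 5.10 and 17.1 CPM in vehicle retinas. Its SD within groups was 1.04 on the log2 scale, above that of 99.5% of the 17466 genes, whose median was 0.15. Dnajb1, the HSP40 that delivers clients to HSP70, was at 57.0, 100.5 and 114 CPM in 24:5 retinas and 64.1, 61.4 and 116 CPM in vehicle retinas. Hspb1 was at 4.49, 9.69 and 11.7 CPM in 24:5 retinas and 7.15, 5.06 and 11 CPM in vehicle retinas. For all 3 genes the highest values were those of the 24:5 replicates 2 and 3 and the vehicle replicate 3. The within-group SD of Dnajb1 was 0.52 and that of Hspb1 0.57 on the log2 scale, above 96.4% and 97.2% of genes.

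The same 3 libraries, picked after the values were seen, were also highest for Hsph1 and Hspd1 of the heat shock set. The 5 of 12 heat shock members in all include Bag3, Dnajb1 and Hspb1, whose high values defined the 3 libraries here. Of the ER set they were highest for Atf4, Xbp1 and Herpud1, 3 of 19. The share among all genes was 16.2%. Hsph1 was at 63.5, 75.1 and 94.6 CPM in 24:5 retinas and 68.2, 60.0 and 78.6 CPM in vehicle retinas, and Hspd1 at 114, 147 and 153 CPM in 24:5 retinas and 115, 128 and 149 CPM in vehicle retinas. Hspe1, which shares the promoter stretch printed above with Hspd1, did not follow it, at 59.7, 52.3 and 55.4 CPM in 24:5 retinas and 63.8, 45.2 and 44.5 CPM in vehicle retinas. Nor did Hspa1a and Hspa1b, whose ranges were 17.2 to 22.8 and 13.2 to 19.1 CPM over the 6 libraries. Hspb1 and Bag3 were also among the more variable members of uninjected retinas, where their within-group SD was 0.26 and 0.25 on the log2(FPKM + 1) scale, above 84.0% and 82.7% of genes.

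Some immediate early genes and markers of glial reaction were highest in the same 3 libraries, 8 of 14 and 5 of 12. Among all genes the share was 16.2%, and the libraries were picked after the values were seen. Fos, an immediate early gene, was at 13.7, 47.3 and 49.7 CPM in 24:5 retinas and 20.7, 26.1 and 40.9 CPM in vehicle retinas, and the 14 immediate early genes, all above 0, summed to 159, 310 and 301 CPM in 24:5 retinas and 195, 216 and 371 CPM in vehicle retinas. Atf3, a stress factor picked after its values were seen, was at 17.9, 58.5 and 62.1 CPM in 24:5 retinas and 27.8, 27.5 and 81.1 CPM in vehicle retinas. The 12 markers of reactive glia, all above 0, summed to 521, 2056 and 1949 CPM in 24:5 retinas and 1565, 1330 and 2400 CPM in vehicle retinas. Not all of them followed these libraries, and Lcn2 was at 15.4, 126 and 39.7 CPM in 24:5 retinas and 229, 156 and 139.6 CPM in vehicle retinas. The 24:5 replicate 1 was the lowest library for Bag3, Fos, Atf3 and the sum of reactive glia markers. The summed lens markers given above ran the other way, highest in the 24:5 replicate 1 and the vehicle replicates 1 and 2. The part of glial reaction or of lens material in these chaperone levels was not tested.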

How the data were processed

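Whole mouse retinas were profiled by RNA-seq from poly(A)-selected, strand-marking libraries, per the labels' protocols. The authors deposited FPKM values for the uninjected retinas, with gene length, symbol and mm10 coordinates, and raw counts for the injected ones. The submitters' processing notes name the mm10 build and, with no role or order, DESeq2 1.42.0, featureCounts 2.0.6 and HISAT2 2.2.1. Annotation release and strand setting: not given in the sources used here. FPKM times gene length gave whole reads per library.

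FPKM values were tested with limma 3.58.1 (trend, robust) on log2(FPKM + 1) in R 4.3.3, for the 13786 genes with a mean of at least 1, with the 3 uninjected groups in 1 fit. This scale understates changes of low genes. For the counts, edgeR 4.0.16 was used (TMM, robust quasi-likelihood test) on the 17466 genes that passed filterByExpr. Tests were two-sided, adjusted by Benjamini-Hochberg over all genes tested, with a threshold of 0.05, and were tested on simulated data, where small changes were mostly missed. A member that did not pass is therefore not shown to be unchanged. All 31 members passed both filters. DESeq2 1.42.0 and other settings were alternatives. Promoters were taken from RefSeq (GRCm38.p6, whose coordinates are those of mm10). A stretch that the deposited coordinates place inside a member was kept to at most 30 bases.

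Members, lists and tests were chosen with earlier results of these data known. Fold changes are given for the 4 members per set with the smallest p in each comparison and for Hspa5, Hspa1a, Hspa1b, Atf4 and Asns. Where others without overlap are named, they were picked after their values were seen. Of other lists up to 3 genes with the smallest p are named. Where nothing says that libraries are separate animals, p-values measure only the spread between samples, which may be technical. No replicates within a group were alike within counting noise (chi-square per degree of freedom 3.25 to 47.6). Replicate numbers were not taken as pairs.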

Additional observations from a re-analysis of the deposited data

How the results depend on the processing

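No member passed in the age, genotype or 18-month against mutant comparisons under any alternative run, and after 24:5 only Serpinh1 did, with DESeq2 (1 heat shock member, log2 -0.56). The genes passing for age were 4 with no filter, 1 with edgeR on recovered reads and 1 with Malat1 as a covariate, against 0. For genotype they were 4 with no filter, against 0. Between 18-month wildtype and mutants they were 1 with no filter, 2 with only those groups fitted and 1 with Malat1 as a covariate, against 0. After 24:5 they were 245 with DESeq2, 85 with no filter, 177 with lens markers as a covariate and 0 to 105 when 1 library was left out, against 2. With the replicate number as a block 88 genes passed after 24:5 and 0 members, and the block changed no other call. Whether equal numbers mark eyes of 1 animal is not stated, and same-numbered deviations correlated at 0.48, -0.29 and 0.53 in the injected groups, so the numbers were not taken as pairs.

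Leaving out 1 library moved the medians: ER genes for age from -0.086 to 0.021, heat shock genes for age from -0.050 to 0.047, for genotype from -0.13 to -0.022 and between 18-month wildtype and mutants from -0.024 to 0.056, and ER genes after 24:5 from -0.087 to 0.0027. It turned the direction of Hspa5 for age (-0.19 to 0.014), Atf4 for genotype (-0.035 to 0.12), Hspe1 (-0.022 to 0.16) and Asns (-0.063 to 0.13) between 18-month wildtype and mutants, and Hspa1a after 24:5 (-0.097 to 0.096). With lens markers as a covariate Hsph1 (-0.044) and Hspa1a (0.018) turned after 24:5. The causes were not tested. The counts of members per direction were added after seeing the data. Low counts limit the precision of Hspb1, with 44 reads in its lowest uninjected library.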
